A study of Mus musculus with 3 samples.

Results

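The integrated stress response and the synthesis of serine were described from 10 genes, taken by their symbols from the deposited table of 55471 features. They were Atf3, Atf4, Ddit3, Trib3 and Chac1 on the stress response side, and Asns, Phgdh, Psat1, Psph and Shmt2 on the amino acid synthesis side. The symbol Ddit3 occurred in 2 entries, and the one with the higher mean was used, the other standing at 0 in every library. The data were polyadenylated RNA libraries from 3 cultured populations of JC, a mouse mammary carcinoma line labelled wild type in genotype, with 1 library per population. JC-WT was the unselected line. JC-P, which the protocol names parental, was recovered at day 14 from tumours grown in the mammary fat pad. JC-M3 was derived from JC-P by 3 rounds of selection for growth in the lung, each an injection into the tail vein and an isolation of metastases at day 28. The treatment label of JC-P reads metastasis, so its tumour origin rests on the protocol. Each population is a single culture, and differences between populations cannot be told apart from differences between cultures.

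In the integrated stress response, kinases that sense amino acid shortage, misfolded protein, double-stranded RNA or haem and mitochondrial stress phosphorylate the initiation factor eIF2. General translation then slows while the transcript of Atf4 is translated more. The ATF4 protein binds C/EBP-ATF response elements and raises transcription of stress factors, amino acid transporters, aminoacyl-tRNA synthetases and enzymes of asparagine, serine and one-carbon metabolism. Serine is made from a glycolytic intermediate by the enzymes of Phgdh, Psat1 and Psph in turn, and is then split by Shmt2 in mitochondria into glycine and a one-carbon unit. Because ATF4 is controlled largely in translation, the level of its transcript is not a measure of its activity.

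Levels are given in TPM (reads of a gene per base of its length, scaled to a fixed total per library), and ratios as log2 of TPM + 0.5. The reads behind each value were recovered from the deposited numbers as whole reads, 18093426, 22132593 and 23386413 over all genes. Where 3 levels or read numbers follow each other, they belong to JC-WT, then JC-P, then JC-M3. The bracketed limits beside a ratio are its exact 95% counting interval, computed on the plain TPM ratio. They cover counting error only and not the variation between cultures, so no difference was tested and no p-value is given. Calls were made from 2-fold upward, in either direction, among 14527 features whose mean reached at least 1 TPM. The 3 ratios are not independent, since JC-P enters both steps and JC-M3 over JC-WT is their sum. All 10 genes passed the filter. Positions refer to GRCm38 with GENCODE M21 annotation.

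The cells were labelled epithelial-like. Of 14 mammary and epithelial markers, Krt8 (1503, 1873 and 681 TPM) and Krt18 (48.6, 48.5 and 18.4 TPM) were abundant, whereas Epcam was at 0 in every library and Cdh1 stayed below 1 TPM. Ptprc, Adipoq and Sftpc, markers of leukocytes, fat cells and lung epithelium, were at 0 in every library. Of 11 fat cell and lung epithelial markers, 1, 2 and 1 reached 1 TPM. Their summed level was 1.38, 4.12 and 3.26 TPM. Ager alone of these passed the filter, with a log2 ratio of 0.99 for JC-P over JC-WT and an interval above 0. The summed level of 16 leukocyte markers was 50.3 to 73.0 TPM over the 3 libraries, nearly all of it Cd14 and Cd68. That of 10 endothelial markers was 12.0, 39.2 and 5.71 TPM, with Cdh5 at 0.0887, 17.7 and 0.104 TPM and Kdr at 0 in all 3. That of 10 fibroblast markers was 222, 418 and 1093 TPM, most of it Col1a1, with Lum and Thy1 at 0. The part of these markers in the ratios below was not tested.

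The core of the C/EBP-ATF response element, TGATGNAA on either strand, was searched in the RefSeq promoter windows of the members (GRCm38.p6, 250 bases before to 50 after each annotated start). All 10 genes had a window, 11 windows in all. The core occurred in the windows of Chac1, Atf3, Asns and Trib3 and not in those of Atf4, Ddit3, Phgdh, Psat1, Psph or Shmt2. Of all 32851 windows in the table, 3.97% held it. The stretches around the 4 matches are shown because the point values of these genes were also the 4 lowest of JC-M3 over JC-P. The counting intervals of Atf3, with the core, and Psph, without it, overlapped there. Each is written 5′ to 3′ on the strand of its gene, with the match in capitals. In Chac1, Atf3 and Trib3 the match lies on the opposite strand and so reads as its reverse complement. A match is a description of the letters and not evidence of binding, and no match in a window says nothing about bases outside it.
Chac1 (chr2:119351013-119351092, plus strand): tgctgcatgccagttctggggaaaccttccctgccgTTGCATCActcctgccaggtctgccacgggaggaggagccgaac
Atf3 (chr1:191183400-191183479, minus strand): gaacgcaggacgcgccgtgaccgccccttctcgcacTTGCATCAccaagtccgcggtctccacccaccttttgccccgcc
Asns (chr6:7693214-7693243, minus strand): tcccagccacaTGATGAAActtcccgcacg
Trib3 (chr2:152344028-152344057, minus strand): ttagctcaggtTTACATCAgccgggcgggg

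The matches spanned positions -193 to -186 of Chac1, -110 to -103 of Atf3 and -23 to -16 of Asns, counted back from the RefSeq start. The match of Asns lies within an exon of the gene in GENCODE. That of Trib3 spanned positions 15 to 22, counted from 1 at the RefSeq start, but lies upstream of the start of the gene in GENCODE. Neither the CRE (TGACGTCA, in 1.79% of all windows) nor the ER stress element (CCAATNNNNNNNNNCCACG, in 0.119%) occurred in any window of the 10 genes, searched on both strands.

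Among the transcription factors, Atf4 stayed within 2-fold, Ddit3 stood above its JC-WT level in both JC-P and JC-M3 (in JC-M3 not once the median of its chromosome was subtracted), and Atf3 was low throughout. Atf4, the central factor of the response (chromosome 15, 80255184 to 80257541), stood at 881, 654 and 787 TPM, from 11152, 10137 and 12730 reads. It was highest in JC-WT and lowest in JC-P, with log2 ratios of -0.43 (-0.47 to -0.39) for JC-P over JC-WT and 0.27 (0.23 to 0.30) for JC-M3 over JC-P. It was the most abundant of the 10 genes in every library, above at least 98.8% of measured features.

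Ddit3 encodes CHOP, a factor that acts with ATF4 and is known for its role in cell death under lasting stress. It lies on chromosome 10 from 127290774 to 127296288 and stood at 61.6, 79.7 and 73.3 TPM. JC-WT was the lowest library, with a log2 ratio of 0.37 (0.22 to 0.53) for JC-P over JC-WT, and the ratio of JC-M3 over JC-P, -0.12 (-0.26 to 0.02), included no change. Mars, a tRNA synthetase gene on the opposite strand, overlaps 68 bases of Ddit3, and whether the counting used strand is not given in the sources used here. Atf3, a stress-induced repressor and activator, lies on chromosome 1 from 191170296 to 191218039. It stood at 13.7, 14.7 and 10.3 TPM, from 158, 208 and 152 reads. With so few reads its intervals were the widest of the 10 genes, -0.20 to 0.41 for JC-P over JC-WT and -0.83 to -0.21 for JC-M3 over JC-P. Only the second left out no change.

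**Figure D1:**
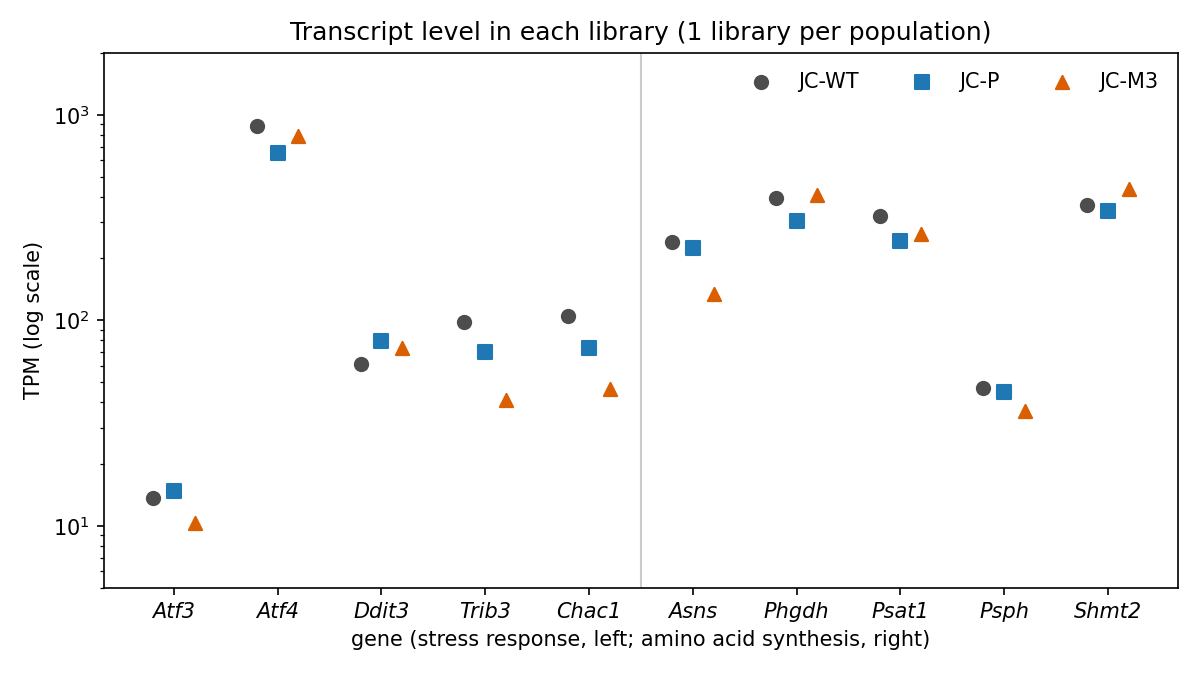
Level of each of the 10 genes in TPM, on a log axis, in JC-WT (circles), JC-P (squares) and JC-M3 (triangles), 1 library each. Trib3, Chac1 and Asns step down to JC-M3, where they stand at 41.1, 46.3 and 134 TPM, while Atf4, Phgdh, Psat1 and Shmt2 are lowest in JC-P.

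Trib3 and Chac1, effectors downstream of ATF4 and CHOP, differed most. Trib3 encodes a pseudokinase that feeds back on ATF4 and CHOP and binds AKT. It lies on chromosome 2 from 152337422 to 152344032 and stood at 98.0, 70.0 and 41.1 TPM, from 1118, 977 and 599 reads. JC-WT was the highest library and JC-M3 the lowest, at 41.9% of the JC-WT level. The log2 ratios were -0.48 (-0.61 to -0.36) for JC-P over JC-WT, -0.76 (-0.92 to -0.62) for JC-M3 over JC-P, and thus -1.24 (-1.40 to -1.11) from JC-WT to JC-M3. Chac1 encodes an enzyme that degrades glutathione. It lies on the same chromosome from 119351229 to 119354381, and its levels of 105, 73.2 and 46.3 TPM, from 923, 787 and 520 reads, had the same order. Its log2 ratios were -0.52 (-0.66 to -0.38), -0.65 (-0.82 to -0.50) and -1.17 (-1.34 to -1.03) in the same 3 comparisons. The level of Trib3 stayed close to that of Chac1, at 0.933, 0.956 and 0.887 of it. Against the level of Atf4, Trib3 stood at 0.111, 0.107 and 0.0522, which is level over the first step and lower after the second. Over that second step the chromosome medians were -0.23 for Trib3 and 0.24 for Atf4. With them subtracted, the log2 ratios of JC-M3 over JC-P were -0.53 for Trib3 and 0.03 for Atf4.

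**Figure D2:**
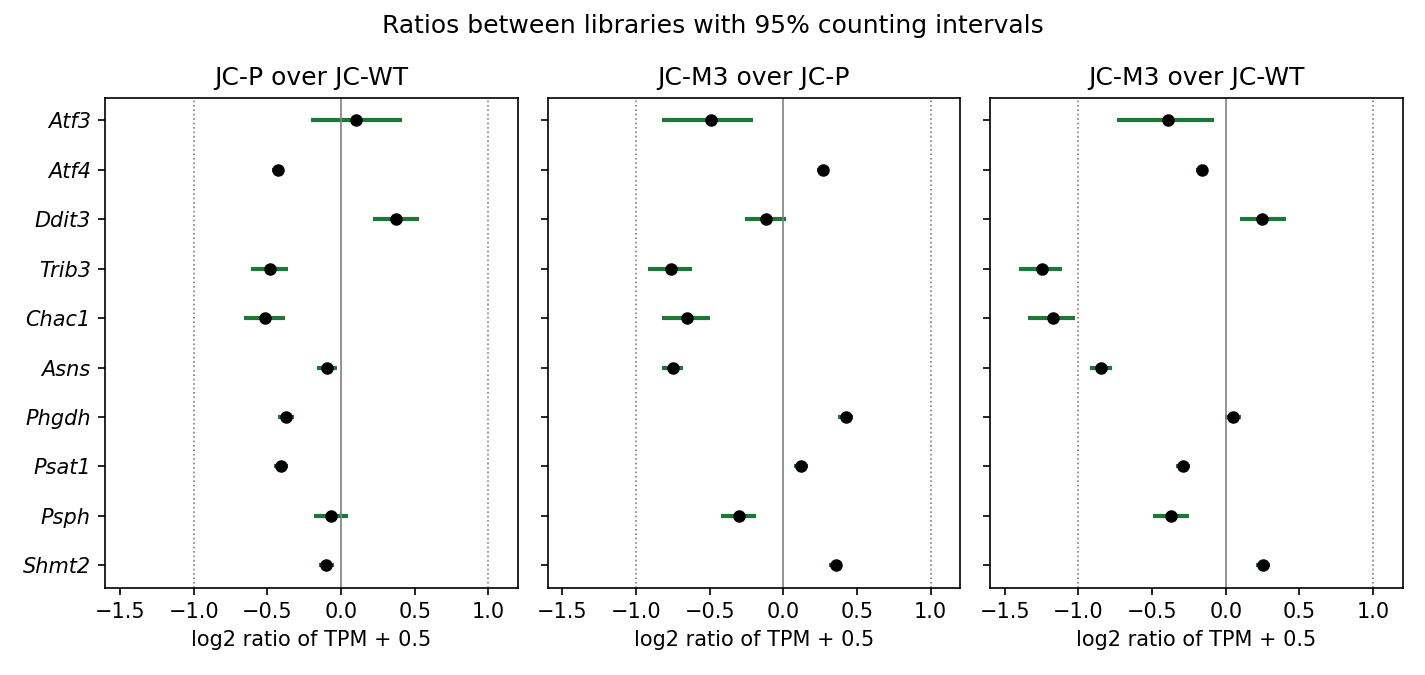
Log2 ratio of TPM + 0.5 of each gene in the 3 comparisons (points) with the 95% counting interval of the plain TPM ratio (green lines); solid vertical lines mark no change and dotted lines 2-fold. Only Trib3 and Chac1 pass the 2-fold line, both lower in JC-M3 than in JC-WT, at -1.24 and -1.17.

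Asns encodes asparagine synthetase, which makes asparagine from aspartate and glutamine and is a standard target of ATF4. It lies on chromosome 6 from 7675169 to 7693254 and stood at 241, 226 and 134 TPM. JC-WT and JC-P were close, with a log2 ratio of -0.10 (-0.16 to -0.03), and JC-M3 was lower than both, with -0.75 (-0.82 to -0.68) against JC-P and -0.85 (-0.92 to -0.77) against JC-WT. Its 4063 reads in JC-P and 2518 in JC-M3 make this ratio one of the more precise. Its interval against JC-WT did not reach 2-fold.

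The enzymes of serine synthesis were not lower in JC-M3 than in JC-P, apart from Psph. Phgdh encodes the dehydrogenase of the first step (chromosome 3, 98313170 to 98339990) and stood at 393, 303 and 406 TPM. JC-P was the lowest library, with log2 ratios of -0.37 (-0.43 to -0.32) for JC-P over JC-WT and 0.42 (0.37 to 0.48) for JC-M3 over JC-P. Against JC-WT, JC-M3 stood at 0.05 (-0.00 to 0.10). The level of Phgdh is uncertain, because 47.8% of the 50-base windows of its transcripts also occur in other genes. Those genes are processed pseudogenes, of which Gm7901 was listed at 101, 74.4 and 99.5 TPM and Gm9347 at 121, 109.9 and 143 TPM. Both were lowest in JC-P, as Phgdh was. At most 3.27% of windows were shared in any of the other 9 genes.

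Psat1 encodes the aminotransferase of the next step (chromosome 19, 15904678 to 15947337) and stood at 321, 242 and 263 TPM. JC-WT was the highest library, with log2 ratios of -0.41 (-0.46 to -0.36) for JC-P over JC-WT and 0.12 (0.07 to 0.17) for JC-M3 over JC-P. Psph encodes the phosphatase that releases serine (chromosome 5, 129765558 to 129787449) and was the least abundant enzyme of the 3, at 46.9, 44.7 and 36.2 TPM. JC-WT and JC-P did not differ beyond counting error, at -0.07 (-0.19 to 0.05), and JC-M3 was lower than JC-P by a log2 ratio of -0.30 (-0.42 to -0.19). Psph overlaps 452 bases of Cct6a on the opposite strand, a chaperonin gene at 335, 266 and 335 TPM. If strand was not used, the count of Psph could be altered in this stretch, in a direction that is not known. The level of Phgdh was 8.38, 6.79 and 11.2 times that of Psph.

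Shmt2, the mitochondrial serine hydroxymethyltransferase gene (chromosome 10, 127517123 to 127522444), stood at 363, 339 and 433 TPM. JC-M3 was the highest library (though below JC-WT with its chromosome's median subtracted), with a log2 ratio of 0.35 (0.31 to 0.40) over JC-P, whereas JC-P over JC-WT was only -0.10 (-0.15 to -0.05). Its cytosolic counterpart Shmt1 was much lower, at 53.5, 32.3 and 48.0 TPM, and was likewise lowest in JC-P. The level of Shmt2 was 6.78, 10.5 and 9.02 times that of Shmt1.

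By library, Atf4 was followed by Phgdh and Shmt2, then Psat1 and Asns, with Atf3 lowest in each. Phgdh stood above Shmt2 in JC-WT and below it in JC-P and JC-M3. Chac1 and Trib3 stood above Ddit3 in JC-WT (105 and 98.0 against 61.6 TPM). They stood below it in JC-P (73.2 and 70.0 against 79.7 TPM) and in JC-M3 (46.3 and 41.1 against 73.3 TPM). For JC-M3 over JC-WT the chromosome medians were -0.31 for Chac1 and Trib3 and 0.41 for Ddit3. With 1 library per population, the spread that would tell neighbours in this order apart is not known.

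Counted over the 10 genes, few differences reached 2-fold. For JC-P over JC-WT, 0 of 10 were at least 2-fold higher or lower, where 4.76% of all measured features were higher and 2.33% lower. For JC-M3 over JC-P it was again 0 of 10, beside 3.82% higher and 5.38% lower among all features. For JC-M3 over JC-WT, 0 were higher, beside 6.14%, and 2 were lower, beside 5.27%. The medians of the 10 ratios were -0.24, -0.21 and -0.33 in the 3 comparisons, beside 0.01, -0.01 and 0.00 over all measured features. The interval left out no change for 8 of 10 genes in JC-P over JC-WT, where 55.4% of all measured features with a known length did so. It was 9 of 10 in JC-M3 over JC-P, beside 59.7%, and 9 of 10 in JC-M3 over JC-WT, beside 60.2%. Such intervals narrow with abundance, and Atf3 aside the genes stood above at least 66.6% of measured features in every library, so these shares describe depth as much as difference.

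Some chromosomes that carry these genes were shifted as a whole, including that of the only genes called. Over measured protein-coding genes, the median log2 ratio between JC-M3 and JC-WT stood at -0.31 for the 927 genes of chromosome 2, which carries Trib3 and Chac1. It was 0.41 for the 556 genes of chromosome 10, which carries Ddit3 and Shmt2, and 0.31 for the 549 of chromosome 3, which carries Phgdh. With the median of its chromosome subtracted, Trib3 stood at -0.94 and Chac1 at -0.87, and neither passed 2-fold. Asns, on chromosome 6 with a median of -0.04, kept -0.80. Ddit3 (-0.17), Shmt2 (-0.16) and Phgdh (-0.26) turned from above 0 to below it, so that all 10 genes lay below 0 on this scale, between -0.94 and -0.16. For JC-M3 over JC-P the same step left Trib3 at -0.53, Chac1 at -0.43, Asns at -0.70 and Atf3 at -0.50, and Atf4 at 0.03. The part of these chromosome-wide shifts in the ratios of the genes was not tested.

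**Figure D3:**
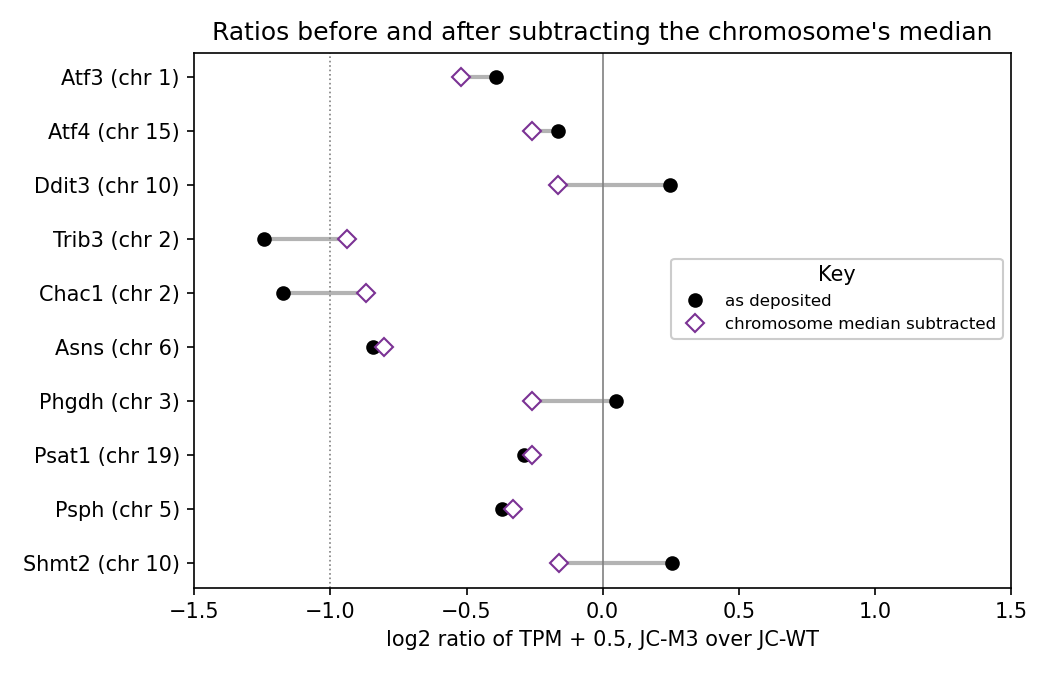
Log2 ratio of TPM + 0.5 for JC-M3 over JC-WT as deposited (filled circles) and after subtracting the median of measured protein-coding genes on the same chromosome (open diamonds), for each of the 10 genes. The diamonds lie between -0.94 and -0.16, all below 0, and Trib3 and Chac1 no longer pass the dotted line at 2-fold.

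The 4 genes with a response element core in their window had ratios of JC-M3 over JC-P from -0.76 to -0.49, and the 6 without one from -0.30 to 0.42. With chromosome medians subtracted, the ranges were -0.70 to -0.43 and -0.34 to 0.17, closest between Chac1 and Ddit3 and by less than their counting error. For JC-P over JC-WT the ranges overlapped, from -0.52 to 0.10 with the core and from -0.43 to 0.37 without. For JC-M3 over JC-WT they ran from -1.24 to -0.39 with the core and from -0.37 to 0.25 without. They were closest there between Atf3 and Psph, whose counting intervals overlapped. For other genes under ATF4 only medians were taken, which do not show whether the ranges overlap. Among the 24 measured genes of the list of other ATF4 targets and partners that had a window, 6 held the core, with a median ratio of JC-M3 over JC-P of -0.29 against -0.25 without it. For JC-M3 over JC-WT these medians were -0.51 with the core and -0.26 without, and for JC-P over JC-WT 0.05 and -0.05. Among 13 tRNA synthetases with a window, 5 held it, with medians of 0.13 and 0.02 for JC-M3 over JC-P. Theirs were -0.15 and -0.03 for JC-M3 over JC-WT, and -0.12 and -0.13 for JC-P over JC-WT. These medians were not tested.

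Upstream of ATF4, transcripts of the eIF2 kinases and of eIF2 and its exchange factor stayed within 2-fold in all 3 comparisons. Of 18 measured genes, 0 were at least 2-fold higher or lower in any. Most measured features also stayed within 2-fold, with 4.76%, 3.82% and 6.14% higher and 2.33%, 5.38% and 5.27% lower in the 3 comparisons. The medians were -0.16 for JC-P over JC-WT and 0.12 for JC-M3 over JC-P. In turn, 12 and 7 genes lay below 0, beside 49% and 50.7% of all measured features. Eif2ak4, which encodes the amino acid sensor GCN2, stood at 10.7, 11.3 and 7.64 TPM, with a log2 ratio of -0.53 (-0.75 to -0.37) for JC-M3 over JC-P. It lies on chromosome 2, whose median in that comparison was -0.23, and stood at -0.30 with it subtracted. Eif2ak2, which encodes the double-stranded RNA sensor PKR, was higher in JC-P and JC-M3 than in JC-WT, at 148, 213 and 215 TPM. Ppp1r15a, the stress-induced phosphatase subunit GADD34 that restores eIF2 and is itself an ATF4 target, was lowest in JC-P at 41.7, 27.3 and 44.1 TPM. Dnajc3, which encodes an inhibitor of eIF2 kinases, was highest there at 114, 158 and 103 TPM.

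Other ATF4 targets and partners lay on both sides of 0, with more genes below 0 than above in JC-M3. Of 29 measured genes, 20 lay below 0 for JC-M3 over JC-P, with a median of -0.15, beside 50.7% of all measured features. For JC-M3 over JC-WT it was 19, beside 49.7%. The median there was -0.21, which stood at -0.09 with no filter on the mean and also with a mean of at least 10 TPM. For JC-P over JC-WT the median was 0.06, with 12 below 0, beside 49%. Stc2, which encodes a secreted stress-induced glycoprotein, stood at 46.0, 17.0 and 11.2 TPM. It was called lower in both JC-P (-1.41, -1.58 to -1.30) and JC-M3 (-1.99, -2.20 to -1.87) against JC-WT. Pycr1, an enzyme gene of proline synthesis, stood at 10.0, 12.0 and 4.96 TPM, with a ratio of -1.19 (-1.58 to -0.98) for JC-M3 over JC-P.

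Cth, which encodes the enzyme that makes cysteine from cystathionine, went the other way, at 7.28, 7.91 and 18.5 TPM, a ratio of 1.18 (0.95 to 1.52) for JC-M3 over JC-P. With the median of chromosome 3 subtracted, Cth stood at 0.93 against JC-P and 0.98 against JC-WT, and neither 2-fold call held. Vldlr, a lipoprotein receptor gene, was lower in JC-P than in JC-WT at 7.53, 3.26 and 4.66 TPM. Gdf15, a stress cytokine gene, stood at 0.70, 2.63 and 2.12 TPM from 7, 32 and 27 reads, with a ratio of 1.38 (0.69 to 3.33) for JC-P over JC-WT. Ddit4, an inhibitor gene of mTOR signalling, was highest in JC-P at 73.7, 95.5 and 58.9 TPM. The glycine transporter gene Slc6a9 was also highest in JC-P, at 37.7, 49.7 and 39.1 TPM. In the cystine and amino acid transporters, Slc7a11 stood at 5.54, 5.89 and 4.13 TPM and Slc3a2 at 318, 232 and 233 TPM.

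**Figure D4:**
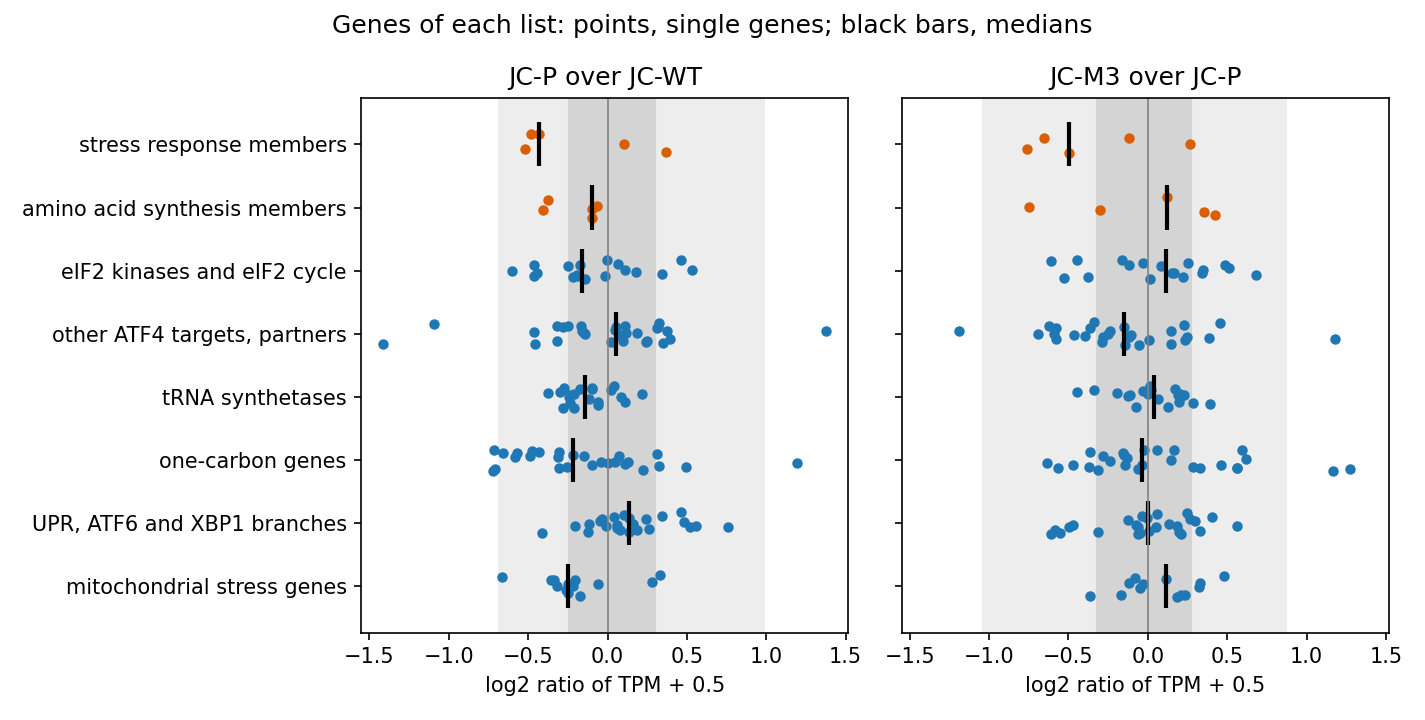
Log2 ratio of TPM + 0.5 of the measured genes of each list for JC-P over JC-WT (left) and JC-M3 over JC-P (right); orange points are the 10 genes described here, blue points genes of related lists, black bars medians, and the dark and light bands the central 50% and 90% of all measured features. Most points lie inside the light band, and those past 2-fold include Stc2 at -1.41 on the left and Pycr1 at -1.19 and Cth at 1.18 on the right.

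The cytosolic tRNA synthetases, many of which are ATF4 targets, all stayed within 2-fold, as did most measured features. Of 20 measured genes, 0 were 2-fold different in any comparison. Among all measured features, 4.76%, 3.82% and 6.14% were higher and 2.33%, 5.38% and 5.27% lower in the 3 comparisons. The medians of the synthetases were -0.14 over the first step, 0.04 over the second and -0.06 over both. The most abundant, the glycyl-tRNA synthetase gene Gars, stood at 1001, 812 and 928 TPM. The phenylalanine enzyme's subunit gene Farsb stood lowest in JC-M3 over JC-P, at -0.45 (-0.58 to -0.32), and the valine enzyme gene Vars the highest, 0.39 (0.35 to 0.44). For JC-P over JC-WT the lowest was the tyrosine enzyme gene Yars, at -0.38, and the highest the leucine enzyme gene Lars, at 0.22.

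Genes of serine, glycine and folate metabolism beyond the 10 had lower medians in JC-P and were divided in JC-M3. Of 27 measured, 17 lay below 0 for JC-P over JC-WT, beside 49% of all measured features, with a median of -0.22. In that comparison 1 was at least 2-fold higher, beside 4.76%, and 0 lower, beside 2.33%. For JC-M3 over JC-P the median was -0.03, and it turned to 0.15 with chromosome medians subtracted. There 2 were at least 2-fold higher, beside 3.82% of all features, and 0 lower, beside 5.38%. Slc19a1, the reduced folate carrier gene, stood at 20.3, 12.2 and 28.0 TPM, a ratio of 1.17 (1.03 to 1.38) for JC-M3 over JC-P that fell short of 2-fold, at 0.95, with the median of chromosome 10 subtracted. Sdsl, a serine dehydratase-like gene, was also called higher in JC-M3 than in JC-P (1.27, 0.56 to 2.93), but from only 9 and 30 reads. Srr, the serine racemase gene that makes D-serine, stood at 10.4, 24.4 and 15.5 TPM and was the gene called higher in JC-P. Ahcy, which hydrolyses S-adenosylhomocysteine, stood at 57.1, 34.4 and 28.2 TPM and was called lower in JC-M3 than in JC-WT (-1.01, -1.18 to -0.86), but stood at -0.70 with the median of chromosome 2 subtracted. Mthfd2, the mitochondrial folate enzyme gene that follows Shmt2 and is an ATF4 target, was level at 105, 94.5 and 105 TPM.

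Genes of the ATF6 and XBP1 branches of the unfolded protein response all stayed within 2-fold. Of 26 measured, 19 lay above 0 for JC-P over JC-WT (median 0.14), beside 50.9% of all measured features. For JC-M3 over JC-P it was 13 (median -0.00), beside 49.2%. In the 3 comparisons 0 were called, where 4.76%, 3.82% and 6.14% of all features were higher and 2.33%, 5.38% and 5.27% lower. Pdia3, a disulfide isomerase gene on chromosome 2, stood at 892, 869 and 593 TPM, close in JC-WT and JC-P and lower in JC-M3. Hspa5, the chaperone gene of BiP and the standard marker of this response, stood at 1842, 2337 and 1882 TPM. Its partner Hsp90b1 was lowest in JC-WT, at 794, 1343 and 1335 TPM. Ern1, which encodes the sensor IRE1, was highest in JC-M3 at 59.0, 65.7 and 97.3 TPM. The protein disulfide isomerase gene Pdia4 was lowest there at 324, 356 and 238 TPM, and Pdia6 was highest in JC-P at 327, 481 and 347 TPM. The sensor gene Atf6b had the lowest ratio of JC-P over JC-WT, at -0.41.

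Of 13 mitochondrial stress genes and chaperones, 11 lay below 0 in JC-P over JC-WT (median -0.25), beside 49% of all measured features. In JC-M3 over JC-P it was 6 (median 0.11), beside 50.7%. None was 2-fold different in the 3 comparisons, where 4.76%, 3.82% and 6.14% of all features were higher and 2.33%, 5.38% and 5.27% lower. The protease gene Clpp stood at 93.2, 58.6 and 73.4 TPM, the protease gene Yme1l1 at 50.2, 63.2 and 49.0 TPM, and the chaperonin gene Hspd1 at 721, 627 and 875 TPM. A list of immediate early genes, to which Atf3 can also belong, and genes of cell dissociation stood higher in JC-M3 than in JC-P. Of its 15 measured genes, 13 lay above 0, beside 49.2% of all measured features. The median was 0.51, or 0.38 with chromosome medians subtracted, while Atf3 itself stood at -0.49. Junb (90.9, 72.6 and 147 TPM) and Btg2 (1.83, 2.77 and 6.96 TPM) were called higher in that comparison and Klf2 lower (7.67, 12.3 and 2.68 TPM), of which Junb stood at 0.96 and lost its call with the chromosome's median subtracted. Fos stood at 0.95, 1.62 and 3.66 TPM and was called higher in JC-M3 against JC-WT.

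Trib3 had the widest range of the 10 genes, and the features whose 2 steps lay nearest to its own were sought among 8818 whose mean reached 10 TPM. Among those near it by Euclidean distance over the 3 libraries were Arhgef10l, at 73.7, 54.3 and 31.4 TPM and a distance of 0.05 log2 units, Camk1 (0.06), mt-Rnr1 (0.08) and Plcg1 (0.08). Only 7 features lay within 0.1 of Trib3, which describes likeness in 3 libraries and nothing more.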

How the data were processed

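Polyadenylated RNA of 3 populations was measured, with 1 library each. The authors deposited TPM per gene, reads scaled by gene length and library, per the file headers. Builds mm10 and GRCm38, STAR 2.7.9a, featureCounts (no version) and FastQC 0.11.9 appear in the submitters' processing notes. The sources used here do not give the annotation release or strand setting.

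Reads were recovered as TPM times merged exon length (GENCODE M21), divided by the value of 1 read, and were whole within 0.01 for 98.4% (JC-WT), 98.5% (JC-P) and 98.5% (JC-M3) of expressed genes, and for all 10 genes described. Ratios used a pseudocount of 0.5 TPM, a mean of at least 1 TPM and a 2-fold threshold, with exact conditional (Clopper-Pearson) 95% intervals. With 1 library per group no test was possible. The members and lists were chosen with earlier results of these data known. List genes were matched by symbol, and 18 older names by gene ID. All members were named. Of other lists, genes came from the 2 highest and 2 lowest ratios of the first 2 comparisons and from those past 2-fold. Slc7a11, Slc3a2, Mthfd2, Pdia3 and Hspa5 were added after their values were seen. The markers Epcam, Cdh1, Ptprc, Adipoq, Sftpc, Kdr, Lum and Thy1 were also named outside this rule. Alternative pseudocounts, filters, scalings, feature sets, chromosome medians and thresholds were run, and the functions were tested on simulated data. Intervals came from scipy 1.17.1 and tables from pandas 2.3.3 with numpy 2.4.6. Plots were drawn with matplotlib 3.10.9 under Python 3.11.15. One feature that the rule for likeness to Trib3 names is not reported here.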

Additional observations from a re-analysis of the deposited data

How the results depend on the processing

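Of 24 alternative medians over the 10 genes, 23 moved by no more than 0.10 log2 units, a typical counting error. The exception was JC-M3 over JC-P, which went from -0.21 to -0.32 with chromosome medians subtracted. The count of genes past 2-fold kept its value under both other pseudocounts, both other filters, both rescalings and with nuclear protein-coding features only. For JC-M3 over JC-WT it went from 2 to 0 with chromosome medians subtracted and to 0 at a 3-fold threshold. At a 1.5-fold threshold it went from 0 to 3 for JC-M3 over JC-P, all lower, where 13.3% of all features were lower, and from 2 to 3 for JC-M3 over JC-WT, where 12.5% were. The share of all features called depends on low genes, and in JC-P over JC-WT 692 higher and 339 lower became 361 and 173 with a pseudocount of 2 TPM, and 306 and 137 of 11392 nuclear protein-coding genes. Chromosome subtraction was the alternative under which single genes left their counting interval or lost a call. The cause of those shifts was not tested. No paired analysis was possible because each group has 1 library. For the same reason no library could be left out, and depth limits Atf3 most.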
